A study of Forsythia viridissima with 2 samples.

Results

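The contigs described here were abundant in both the flower and the leaf of Forsythia viridissima and differed by no more than 1.5-fold in level between the tissues. They are called even contigs below. A contig is a transcript, whole or in part, put together from sequencing reads without a genome. The even contigs were chosen by 2 values from the same pair of libraries: an expected count of at least 1000 in both, and a ratio of flower to leaf between 0.667 and 1.5. The ratio was taken on CPM, the count divided by the library total and scaled to a total of 1000000. Of 88491 contigs, 285 met both conditions, which is 0.322% of the assembly. Because those counts chose the contigs, their levels and ratios are given as a description.

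The study compared flower and leaf within Forsythia species used in medicine, with genes of secondary metabolism in view. The 2 libraries, 1 of flower and 1 of leaf, were made from plants 2 years old grown in the open at a Japanese medicinal plant collection and sampled in April. The labels do not say whether both tissues came from one plant or how many plants gave the RNA. Flower and leaf held 8279227 and 8942023 counts. With 1 library per tissue there was no spread between replicates, so no test between the tissues was made, and intervals cover counting error only.

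Forsythia is a shrub of the olive family that opens its flowers before its leaves in spring, and its organs are known for lignans. Flower and leaf are both organs of the shoot and share the work of every plant cell, such as making proteins, moving membranes and drawing energy from sugar, while photosynthesis is chiefly the task of the leaf. Transcripts for the shared work are often found at similar levels across organs. The files pair no contig with a gene name, so which of the even contigs belong to such work is not known here. Contig sequences were not used here. Contigs are named by ID only for the 2 most abundant even contigs on each side of equality.

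Contigs of at least 1000 counts in both libraries numbered 603. The even contigs were 47.3% of them, a share that the choice of band sets. Another 125 were over 1.5-fold higher in flower and 193 over 1.5-fold higher in leaf. Of those outside the band, 59 in the flower direction and 57 in the leaf direction lay within 2-fold. From 2-fold up to 4-fold the flower direction had 54 and the leaf direction 83. At 4-fold or beyond it was 12 toward flower and 53 toward leaf. Among the 36828 contigs with at least 20 counts in either library, 35.8% lay within 1.5-fold, and among the 2057 with at least 1000 counts in at least 1 library it was 20.4%. Both of these shares include contigs that are high in 1 tissue alone, and the 35.8% also includes thinly counted ones, so neither is set against the 47.3%.

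**Figure D1:**
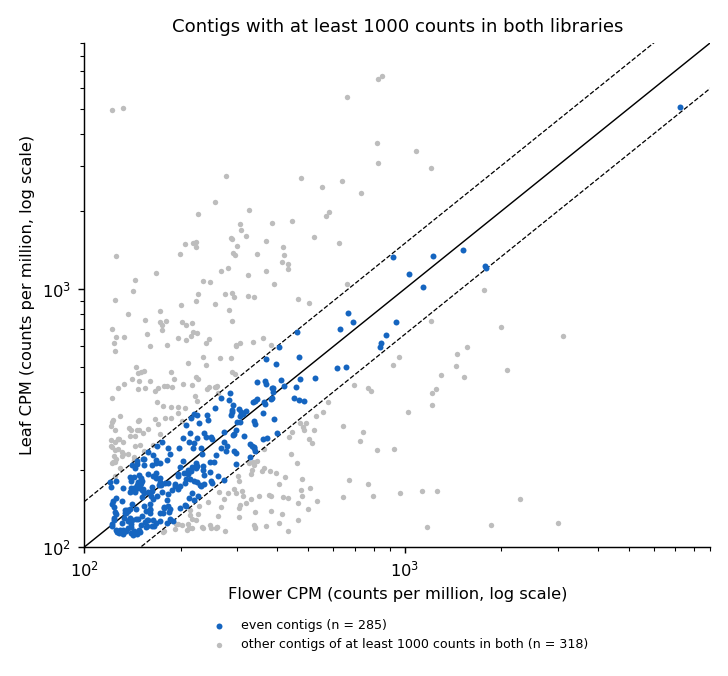
Flower CPM (x axis) against leaf CPM (y axis), both on log scales, for the 603 contigs with at least 1000 counts in both libraries. Blue points are the 285 even contigs and grey points the other 318; the solid line marks equal CPM and the dashed lines a ratio of 1.5 either way. The blue point at the upper right is the contig with 59911 counts in flower and 45506 in leaf.

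The even contigs together held 8.16% of the flower counts (95% Wilson interval 8.14 to 8.17%) and 7.79% of the leaf counts (7.77 to 7.80%). The other 318 contigs that reached 1000 counts in both held 12.5% of flower and 20.8% of leaf counts. Contigs that reached 1000 counts in 1 library alone, 1454 in number, held 22.9% of flower and 19.7% of leaf counts. Of the contigs at 1000 counts or more in flower, 22.2% were even, and of those in leaf 20.7%. A count of 1000 was 120.8 CPM in flower and 111.8 CPM in leaf, so the minimum was slightly stricter in flower.

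Even contigs were 15% of the 100 most abundant contigs in flower and 11% in leaf. Of all contigs at 1000 counts or more they were 22.2% in flower and 20.7% in leaf. A rank in 1 library also takes in contigs that are high in that tissue alone. Among the 10 most abundant contigs by count, 1 was even in flower and 1 in leaf, and it was the same contig. Among the 100 most abundant, 15 were even in flower and 11 in leaf. Among the 1000 most abundant, 237 were even in flower and 219 in leaf. The contigs that reached the top 100 of both libraries numbered 23, and 11 of these were even. In the top 1000 of both were 438 contigs, of which 203 were even. These counts stand beside 285 of the 603 contigs with at least 1000 counts in both libraries, or 47.3%. Ranks come from the counts that chose the contigs, so nothing is read from these shares.

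The most abundant even contig was TR19449|c0_g1_i1, of 6519 bases. It had 59911 counts in flower and 45506 in leaf, at rank 1 in flower and rank 4 in leaf. Its level was 7236 CPM in flower and 5089 CPM in leaf, a ratio of 1.42 (exact 95% counting interval 1.40 to 1.44). This contig alone carried 8.87% of the flower counts and 6.54% of the leaf counts of all even contigs. Per length it stood lower, at 1149 TPM in flower and 778 TPM in leaf. The contig was at rank 37 by TPM in flower and 88 in leaf. TPM is taken here as the count divided by effective length, which is somewhat below contig length, and scaled per library.

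The other contig named on the flower side was TR24217|c0_g1_i1, of 1242 bases. Its 14725 counts in flower and 10980 in leaf gave a ratio of 1.45 (1.41 to 1.48). By TPM it was above TR19449|c0_g1_i1 in both tissues, with 1675 TPM in flower and 1110.4 TPM in leaf. Its TPM ratio was 1.51, just outside the band that its CPM ratio met.

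On the leaf side, TR5805|c0_g1_i1 was a contig of 7582 bases with 10123 flower counts and 12006 leaf counts. Its ratio was 0.911 (0.887 to 0.935), and its level per length was 166 TPM in flower and 176 TPM in leaf. TR26686|c0_g1_i1, a contig of 1544 bases, was counted 7642 times in flower and 11853 times in leaf, a ratio of 0.696 (0.677 to 0.717), with 678 TPM in flower and 936 TPM in leaf. TMM factors and DESeq2 size factors, which are 2 other ways to scale libraries, lower every ratio of flower to leaf by one factor each. The TMM-scaled ratio of TR26686|c0_g1_i1 was 0.661 and its DESeq2-scaled ratio 0.650, both just outside the band. Each of the 4 was the only contig under its assembly gene name, which is the ID without its isoform number.

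The level of the even contigs was spread over more than an order of magnitude, with most of them near the minimum. Flower CPM ran from 120.8 to 7236, at a median of 196 and quartiles of 151 and 289.8. Leaf CPM ran from 111.9 to 5089, with a median of 190.3 and quartiles of 147 and 278. The lower of each contig's counts was under 2000 for 199 of the 285, and 15 had 5000 or more in both libraries. The 10 with the highest summed CPM held 22.6% of the flower counts and 19.5% of the leaf counts of the even contigs.

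Per length the spread was wider. TPM ran from 15.0 to 1885 in flower, with a median of 126, and from 14.4 to 2001 in leaf, with a median of 116. At 500 TPM or more were 12 even contigs in flower and 9 in leaf, and under 50 TPM were 39 in flower and 46 in leaf. The highest TPM in both tissues belonged to a short contig of 724 bases with 8556 counts in flower and 10243 in leaf, at 1885 TPM and 2001 TPM. The lowest flower TPM, 15.0, was that of a contig of 8535 bases with 1030 counts in flower and 1158 in leaf, where its level was also 15.0 TPM. The lowest leaf TPM, 14.4, was that of the longest even contig, of 12337 bases, with 2062 counts in flower and 1609 in leaf. The shortest even contig, at 566 bases, was counted 1344 times in flower and 1479 times in leaf and stood at 415 TPM and 404 TPM. The other 318 abundant contigs had median levels of 176 TPM in flower and 267 TPM in leaf.

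**Figure D2:**
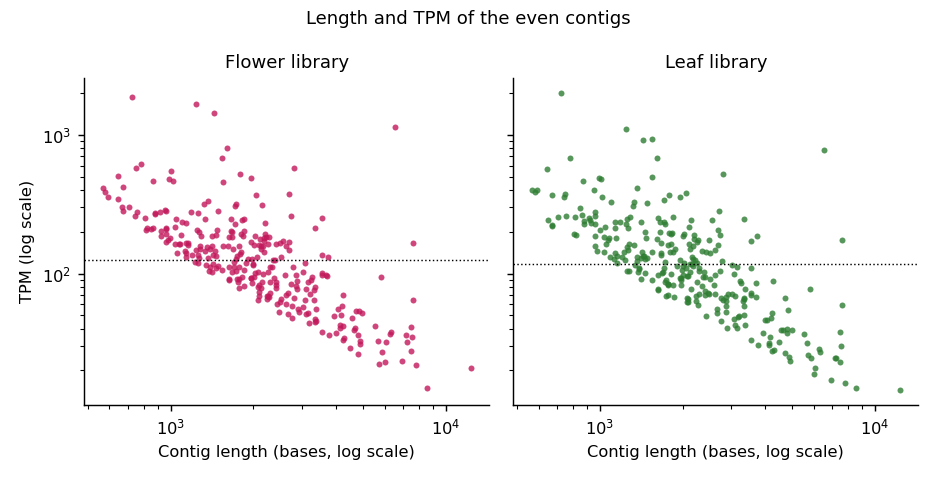
TPM (y axis, log scale) against contig length in bases (x axis, log scale) of the 285 even contigs, with flower in the left panel and leaf in the right. Each point is a contig and the dotted line is the median, 126 TPM in flower and 116 TPM in leaf. The sloping lower edge of the points follows from the minimum of 1000 counts, since a longer contig reaches it at a lower TPM.

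Within the band, the ratios lay on both sides of equality. CPM was higher in flower for 154 even contigs and higher in leaf for 131, while over all 603 abundant contigs it was higher in flower for 46.3%. The 2 sides were close to equal with DESeq2 size factors, under which flower was higher for 138 and leaf for 139. In the sets even by other scalings, the split was 144 to 131 with TMM factors and 159 to 122 by TPM. With the flower minimum of 120.8 CPM applied to leaf as well, 21 even contigs were lost, all of them higher in flower, and the split was 133 to 131. The median ratio was 1.02 and the quartiles 0.860 and 1.19, or 0.03, -0.22 and 0.25 as log2 ratios. On the log2 scale, where the band reaches 0.58 either way, 60 even contigs lay within 0.1 of equality, 118 within 0.2 and 219 within 0.4. Of the 66 farther out, flower was higher for 37 and leaf for 29. Nearest to equality by ratio was a contig of 1320 bases with 3015 flower counts and 3253 leaf counts, which is 364.2 CPM and 363.8 CPM.

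Counts of 1000 or more left most of the differences inside the band larger than counting error. The counting interval of the ratio lay above 1 for 125 even contigs, below 1 for 103, and held 1 for 57. With DESeq2 size factors it lay above 1 for 100 and below 1 for 111, so which side was larger depended on the scaling. Over all 603 contigs of at least 1000 counts in both libraries the interval lay above 1 for 41.5%, below 1 for 49.1% and held 1 for 9.45%; the band itself raises the share that holds 1, so nothing is read from the difference. The 57 that hold 1 had ratios from 0.939 to 1.08. The median ratio was 1.24 where the interval lay above 1 and 0.824 where it lay below 1. Intervals had an upper bound 1.15 times the lower bound as the median, from 1.02 to 1.19 times. Even in this set therefore means within 1.5-fold between these libraries, and not equal within counting error.

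**Figure D3:**
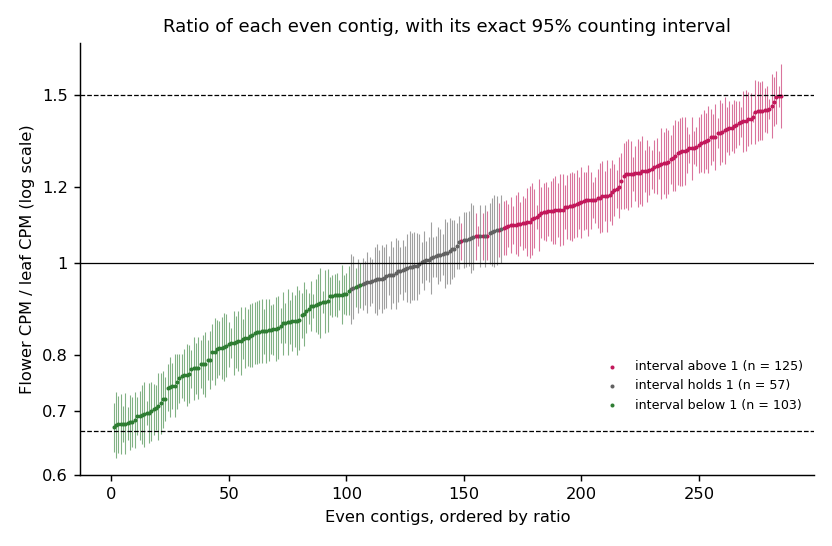
Ratio of flower CPM to leaf CPM (y axis, log scale) of the 285 even contigs, ordered from low to high along the x axis. Points are ratios and vertical lines exact 95% counting intervals, coloured by whether the interval lies above 1 (125), holds 1 (57) or lies below 1 (103). Dashed lines mark the band from 0.667 to 1.5, and the intervals at both ends of the order cross them.

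The edges of the band fell inside a continuous spread of ratios. For 251 even contigs the whole counting interval lay inside the band, and for 34 it crossed an edge, 15 on the flower side and 19 on the leaf side. Outside the band, 22 of the other abundant contigs had an interval that reached into it. On the flower side the last contigs inside were 1.494-fold and 1.493-fold higher in flower, and the first outside were 1.51-fold and 1.53-fold. On the leaf side the last inside were 1.487-fold and 1.477-fold higher in leaf, and the first outside 1.507-fold and 1.511-fold. The count minimum was as fine an edge: a contig with 1000 counts in flower and 1595 in leaf was in, and one with 1001 counts in flower and 996 in leaf was out.

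Length was not used in the choice, although a longer contig collects more counts at the same level per length. The length of the even contigs ran from 566 to 12337 bases around a median of 2028 bases, with quartiles of 1370 and 3020. The other 318 contigs of at least 1000 counts in both had a median of 1768 bases. Those of them higher in flower had a median of 1981 bases and those higher in leaf 1608 bases. At 2000 bases or more were 147 of the 285 even contigs (51.6%) and 120 of the 318 others (37.7%). Contigs are not replicates of a tissue, so this difference has no test.

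By length class, the even share was 39.5% of 86 contigs under 1000 bases, 42.9% of 126 from 1000 to under 1500 bases, and 40.3% of 124 from 1500 to under 2000 bases. It was 53.2% of 141 from 2000 to under 3000 bases, 59.3% of 86 from 3000 to under 5000 bases, and 52.5% of 40 at 5000 bases or more. In the same order of classes, the share over 1.5-fold higher in leaf was 38.4%, 42.9%, 37.9%, 27.0%, 18.6% and 12.5%. The share over 1.5-fold higher in flower was 22.1%, 14.3%, 21.8%, 19.9% and 22.1% in the first 5 classes and 35.0%, or 14 of 40 contigs, in the last. Split at 2000 bases, the even share was 55.1% for contigs of that length or more and 41.1% for shorter ones. With TMM factors these shares were 52.8% and 39.9%, with DESeq2 size factors 53.2% and 40.2%, and with TPM 54.3% and 40.5%.

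**Figure D4:**
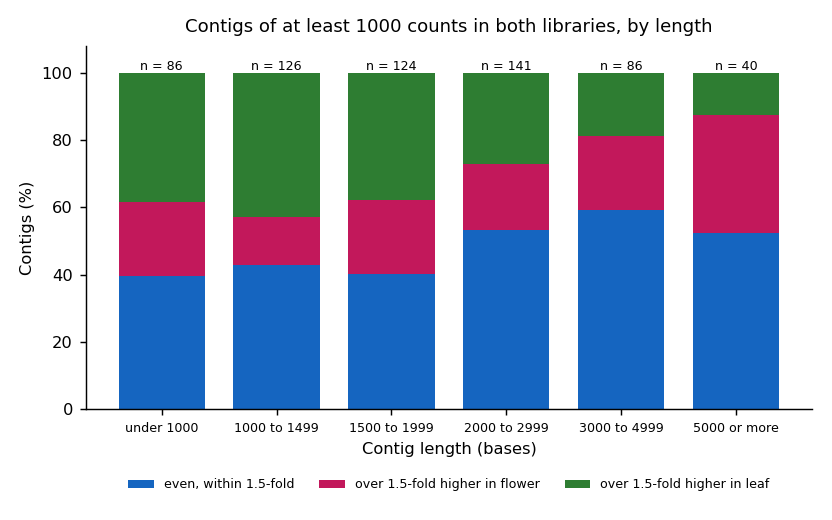
Percent of contigs (y axis) that were even (blue), over 1.5-fold higher in flower (red) or over 1.5-fold higher in leaf (green), by class of contig length in bases (x axis). The bars hold the 603 contigs with at least 1000 counts in both libraries, with the number in each class above its bar. The even part is 59.3% at 3000 to under 5000 bases and 39.5% under 1000 bases.

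By the lower of the 2 counts, the even share was 48.3% from 1000 to under 1500 counts, 49.1% from 1500 to under 2000, 44.8% from 2000 to under 3000, 42.9% from 3000 to under 5000 and 38.5% of 26 contigs from 5000 to under 10000. With 10000 counts or more in both libraries there were only 6 contigs, of which 5 were even. Counts entered the choice, and these shares describe where the even contigs lie among the 603.

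The 285 even contigs fell under 269 assembly gene names and 265 read clusters, the part of the ID with the TR number. Alone under their assembly gene name were 214 (75.1%), against 240 of the other 318 abundant contigs (75.5%) and 71.0% of all contigs. For 254 assembly genes 1 contig was even, for 14 there were 2, and for 1 there were 3. The assembly gene with 3 had contigs of 3036, 3159 and 2345 bases, each lower in flower than in leaf, with ratios of 0.848, 0.743 and 0.740.

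Since the band limits how far even contigs can differ, their likeness under one name is a description only. In 11 of the 15 assembly genes with several, all of them lay on one side of equality, and in 4 they lay on both sides. The gap between the highest and lowest log2 ratio had a median of 0.16 and ran from below 0.01 to 0.77. In 6 of the 15 the counting intervals did not all overlap. A further abundant contig outside the band stood under the name of an even contig in 10 assembly genes. The widest gap was in an assembly gene of 5 contigs, where an even contig of 1963 bases was counted 7243 times in flower and 5938 times in leaf, and one of 1365 bases 3294 times in flower and 4596 times in leaf. Their ratios of 1.32 (1.27 to 1.36) and 0.774 (0.740 to 0.810) differed by more than counting error. Summed, the pair had 10537 counts in flower and 10534 in leaf. The same name held 2 more abundant contigs outside the band, with ratios of 0.509 and 0.657, and all 5 contigs summed to 16425 counts in flower and 21725 in leaf, a ratio of 0.817. A pair of even contigs of 1633 bases each, under another name, had ratios of 1.097 (1.02 to 1.19) and 0.705 (0.668 to 0.744). The labels do not say how reads common to such contigs were divided among them.

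Other contigs under the assembly gene name of an even contig are called mates here, and their ratios are given as a description. Mates with at least 20 counts in 1 library numbered 70, under 45 assembly genes, and 36 of them (51.4%) lay within 1.5-fold. Among all contigs with at least 20 counts in 1 library under an assembly gene of 2 or more contigs it was 40.6%. The mates had median counts of 759 in flower and 652 in leaf, and those 18805 contigs 65 in flower and 64 in leaf. The depths were not matched, so the shares are not compared. The choice itself placed 12 mates outside the band, since they had 1000 counts or more in both libraries. Without these, 36 of 58 mates (62.1%) lay within 1.5-fold, with 14 farther toward flower and 8 toward leaf, at median counts of 607 in flower and 502 in leaf. The 58 stood under 37 assembly gene names, so they were not separate cases. One name alone gave mates 4.47-fold, 3.54-fold, 2.24-fold, 1.57-fold and 1.56-fold higher in flower among the 14, so nothing is read from the split. Mates of the other 318 abundant contigs lay within 1.5-fold in 24 of 53 cases (45.3%). Of these, 11 were even contigs themselves, placed inside the band by the choice, and without them it was 13 of 42 (31.0%), at median counts of 397 in flower and 491 in leaf. Leaving out contigs of 1000 counts or more in both libraries thus removed mates outside the band on one side and inside it on the other, and the restriction was chosen after seeing the data. Over all contigs so restricted, with medians of 64 counts in each tissue, it was 40.5%. Mates can share reads with the contig they are named with, and the part of shared reads in these counts was not tested.

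**Figure D5:**
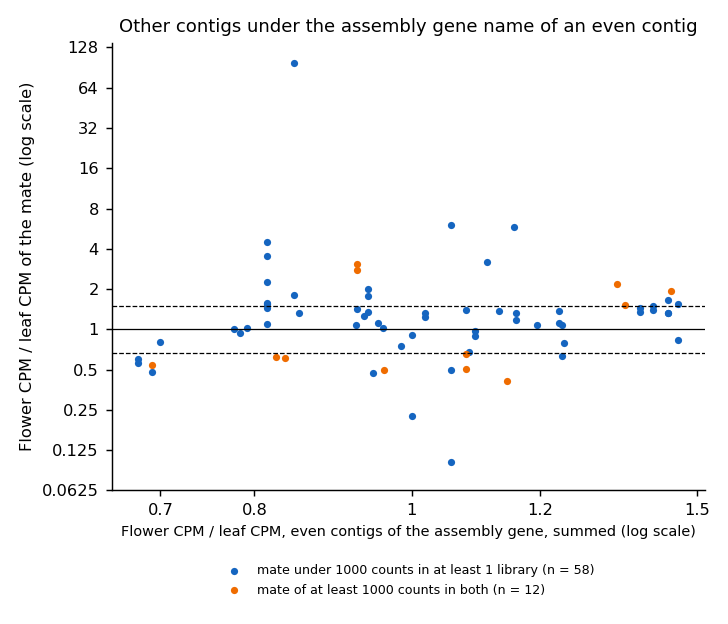
Ratio of flower CPM to leaf CPM of the 70 mates (y axis, log scale) against the ratio of the even contigs under the same assembly gene name, summed (x axis, log scale). Blue points are the 58 mates under 1000 counts in at least 1 library and orange points the 12 with 1000 or more in both. Dashed lines mark the band; the highest point is the mate with 2190 counts in flower and 24 in leaf.

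Of the 70 mates, 6 were past 4-fold, and of the 53 mates of the other 318 abundant contigs 5 were. A name with an even contig could thus also hold one that was very uneven, as could the names of those others. The farthest of the 70 was a contig of 1224 bases with 2190 counts in flower and 24 in leaf. It was 98.6-fold higher in flower (66.1 to 154). The even contig under its name was 1254 bases long, with 1211 flower counts and 1545 leaf counts. Summed over the name, the assembly gene was 2.20-fold higher in flower.

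A further name held an even contig of 1554 bases, with 1792 counts in flower and 1830 in leaf, beside mates that went both ways. One mate of 1685 bases was counted 303 times in flower and 3186 times in leaf, 9.74-fold higher in leaf. Another of 1018 bases was counted 571 times in flower and 102 times in leaf, 6.05-fold higher in flower. Under yet another name, the even contig of 2051 bases was counted 5696 times in flower and 6650 times in leaf, while its mates of 2433 and 2475 bases were 3.06-fold and 2.79-fold higher in flower. Those mates had 1000 counts or more in both libraries, so the choice itself placed them outside the band. A smaller mate of 884 bases, with 355 flower counts and 272 leaf counts, lay inside it at a ratio of 1.41.

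When counts were summed by assembly gene name, 782 assembly genes had at least 1000 counts in both libraries and 406 of them (51.9%) lay within 1.5-fold. Of the 269 names with an even contig, 257 were even as a sum and 12 were not. For 214 of the names the even contig stood alone, so the sum was even by the choice itself. Only names with further contigs could come out otherwise, and all 12 were among those. The other 149 held no even contig, since no single contig under the name met both conditions.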

How the data were processed

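Per the labels' protocols, RNA of 1 flower and 1 leaf sample was captured on oligo(dT) beads and sheared, copied from random primers, and built into libraries with a strand-specific kit. Trimmomatic, a read trimmer, and RSEM, which estimates reads per transcript, are named in the submitters' processing notes without versions; no source used here names the aligner, the assembler or any filter. The deposited expected counts of RSEM are not normalized, and all were whole numbers (0 were not). Whole expected counts are unusual for RSEM where reads match several contigs, so what the counts mean for contigs that share reads is uncertain. The file headers name TPM, FPKM and effective length without a formula. The authors' TPM and FPKM are taken here as counts divided by effective length and scaled per library. Effective length was 171.51 bases below contig length in flower and 167.95 in leaf, the median over even contigs. The deposited IsoPct, a percent of an RSEM gene's transcripts, was 100 in both libraries for all 285 even contigs. These included the 71 with other contigs under their assembly gene name. IsoPct therefore did not follow the assembly gene names, and 100 does not mean that no other contig of the name was counted. FPKM of even contigs in the deposited table of both tissues differed from the library tables in 0 values.

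CPM was computed from expected counts and library totals. Ratios have exact 95% Clopper-Pearson intervals conditional on the summed count. The labels name no molecular identifiers, so counted fragments need not be independent molecules, and intervals cover counting error only. Alternatives were TMM factors (edgeR 4.0.16, R 4.3.3), DESeq2 1.42.0 size factors, other count minimums and bands, TPM, FPKM and assembly gene sums; edgeR and DESeq2 were used for scaling only. The calculation was tested on simulated data with known ratios. The simulated counts carried counting error only, and contigs were either unchanged or changed well past the band. Calls near the band edges were therefore not tested. Python 3.11.15, numpy 2.4.6, scipy 1.17.1, pandas 2.3.3 and matplotlib 3.10.9 were used. The even contigs and the rules were chosen with earlier results of these data known. Contigs named by ID were the 2 with the highest summed CPM on each side of equality; other contigs singled out by length were chosen after their values were seen. No gene list could be applied, since no contig had a name.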

Additional observations from a re-analysis of the deposited data

How the results depend on the processing

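Among 55 alternative values, 27 stayed close to the value reported (within 1.5 times for a number of contigs, within the binomial interval for a share or a median), and 28 moved further. These yardsticks differ in width, and the interval of a library share covers counting error only, so the tally does not measure robustness. A new minimum or band changes the set by construction. The 57 whose interval held 1 had ratios from 0.939 to 1.08, so neither of the other bands could alter their number. TMM factors and DESeq2 size factors lower every ratio by one factor each, which moves contigs across the band edges. Why these factors differ from the library totals was not tested. With TMM factors 267 of the 285 even contigs were kept, 18 were lost and 8 gained; with DESeq2 size factors 264 were kept, 21 lost and 13 gained. Those factors shifted all log2 ratios by -0.08 and -0.10. The interval lay above and below 1 for 106 and 106 with TMM factors and for 100 and 111 with DESeq2 size factors. The number of even contigs was 281 by TPM, 286 by FPKM, 264 at the flower minimum in CPM for both libraries (added after seeing the data), 992 at a minimum of 500 counts, 86 at 2000, 187 in a narrower band of 0.32 either way on the log2 scale, and 401 within 2-fold. The even contigs held 7.97% of flower and 7.30% of leaf counts with TMM factors, 8.05% and 7.31% with DESeq2 size factors, 14.4% and 13.9% at 500 counts, 4.70% and 4.36% at 2000, 4.56% and 4.56% in the narrower band, and 11.7% and 11.2% within 2-fold. Intervals above 1, below 1 and holding 1 numbered 394, 318 and 280 at 500 counts, 39, 34 and 13 at 2000, and 69, 61 and 57 in the narrower band; within 2-fold 160 lay below 1. The median length was 2175 bases at 2000 counts. The share of mates in the band was 64.0% at 2000 counts, 25% in the narrower band and 70.1% within 2-fold. Restricting mates to those under 1000 counts in at least 1 library was also added after seeing the data. No paired analysis was possible because there was 1 library per tissue.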
